A study of Mus musculus with 8 samples.

Results

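The fibrillar collagens and the lysyl oxidases that bind them together were followed in hearts under pressure overload. The 8 genes were taken by symbol from the 32285 genes listed in the files: 5 collagen chains (Col1a1, Col1a2, Col3a1, Col5a1 and Col5a2) and 3 lysyl oxidases (Lox, Loxl1 and Loxl2). Each of the 8 symbols matched a single row, and all 8 had at least 50 UMIs (unique molecular identifiers, 1 for each captured transcript) in every set of counts that was compared. The hearts came from wild type male C57BL/6J mice operated at 8 weeks of age. Transverse aortic constriction (TAC), a tie around the aortic arch that raises the load on the left ventricle, was compared with a sham operation in which the tie was left out. Hearts taken 2, 4 and 6 weeks after surgery are called TAC-2w, TAC-4w and TAC-6w. Every condition, sham included, had 1 tissue section read by Visium spatial transcriptomics and 1 droplet library of dissociated heart. No statement was found on how many animals a section or a library came from.

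Collagen fibrils are the load-bearing cables of the heart's interstitium, and fibroblasts are their main source. Type I collagen is a trimer of Col1a1 and Col1a2 chains, and type III collagen is made of Col3a1 alone. Type V collagen, whose chains include Col5a1 and Col5a2, sits inside the fibril and sets its diameter. Lysyl oxidases are copper-dependent enzymes that oxidise lysines in collagen and elastin outside the cell, the step that lets the fibrils be cross-linked. Fibrosis under pressure overload is known as a build-up of these cross-linked fibrils.

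The sections had 1228 to 2193 spots and 25996378 to 48754396 UMIs, and the libraries 28793316 to 86671674 UMIs in 5854 to 10275 barcodes. A level is given in CPM, the summed UMIs of a gene per 1000000 UMIs, with an exact Poisson 95% interval, and a ratio between conditions with an exact conditional binomial 95% interval. Both cover counting error only. With 1 section and 1 library per condition, no test between conditions was possible and the spread between animals is unknown. By the labels, the section of TAC-2w shares its batch with that of sham, whereas TAC-4w and TAC-6w each had a batch of their own, so for these last 2 the condition cannot be told apart from the batch. Among the libraries the labels put sham and TAC-6w together, and TAC-2w and TAC-4w in a batch each, but run names given elsewhere in the study group the libraries otherwise, so no library comparison is taken as within a batch. Barcodes were rarely shared between libraries (9 to 30 per pair, of which at most 5 were fibroblasts).

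Col1a2 lies on chromosome 6 (chr6:4505618-4541543 in GRCm38.p6, the assembly behind mm10) and Col1a1 on chromosome 11 (chr11:94936224-94953042). Col3a1 (chr1:45311538-45349706) and Col5a2 (chr1:45374331-45503282) are neighbours on chromosome 1. Col5a1 is at chr2:27886381-28039510, Loxl1 at chr9:58287723-58313212 and Loxl2 at chr14:69608692-69695834. The 250 bases before the RefSeq start of Col1a2 and of Col3a1, the 2 collagen genes that were higher than sham at TAC-4w and lower at TAC-6w by the widest margin in fibroblasts, are shown from the GRCm38.p6 plus strand, 5′ to 3′, at chr6:4505368-4505617 and chr1:45311288-45311537. Capitals mark the letters of the CCAAT box, of the TATA box, written TATAAA, and of the GC box, written GGGCGG, each searched on both strands.

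Col1a2: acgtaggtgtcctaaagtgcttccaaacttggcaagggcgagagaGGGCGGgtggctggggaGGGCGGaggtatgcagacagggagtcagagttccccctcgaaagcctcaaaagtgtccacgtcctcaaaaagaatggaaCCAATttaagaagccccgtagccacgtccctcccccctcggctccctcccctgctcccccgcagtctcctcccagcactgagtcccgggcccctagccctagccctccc

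Col3a1: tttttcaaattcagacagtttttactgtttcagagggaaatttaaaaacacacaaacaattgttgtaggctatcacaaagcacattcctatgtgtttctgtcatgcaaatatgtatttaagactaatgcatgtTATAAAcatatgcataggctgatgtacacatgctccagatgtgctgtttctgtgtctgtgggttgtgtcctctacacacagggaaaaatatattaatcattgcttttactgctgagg

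The Col1a2 stretch held CCAAT with its first base 109 bases before the start and GGGCGG at 205 and 188 bases, with 62% G or C. The Col3a1 stretch held TATAAA at 117 bases and neither of the other motifs, with 35.2% G or C. Among 32851 RefSeq promoter stretches of the same length, 33.8% held CCAAT, 12.4% TATAAA and 32.7% GGGCGG, so each match is common and is a description of the letters only.

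In the sections, all 5 collagens were at their lowest level at TAC-4w and at their highest at TAC-6w. Summed over the 5 genes, the level was 231 CPM in sham and 221, 133 and 632 CPM at 2, 4 and 6 weeks of TAC, which is 0.574 times sham at TAC-4w and 2.74 times sham at TAC-6w. Of all 8 genes, 1 was at least 1.5-fold higher than sham and 2 were at least 1.5-fold lower at TAC-4w, where 15.2% and 2.5% of 11205 genes with at least 50 UMIs in either section were. At TAC-6w 7 of the 8 genes were at least 1.5-fold higher and none lower, where 17.6% of 11952 genes were higher and 0.962% lower. Against TAC-4w, TAC-6w had 7 of the 8 genes at least 1.5-fold higher and 1, Lox, lower, beside 10.6% and 5.68% of 12023 genes. At TAC-2w none of the 8 passed 1.5-fold in either direction, against 4.95% higher and 3.27% lower of 11423 genes.

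Col3a1, the type III chain, moved over the widest range of the 8 genes. Its level was 87.4 CPM (95% interval 83.8 to 91.1) in the sham section and 90.7 (88.0 to 93.4), 31.3 (29.4 to 33.3) and 267 (262 to 271) at 2, 4 and 6 weeks. Sham and TAC-2w were not separated by counting error, TAC-4w lay below both and TAC-6w above all. The ratio to sham was 0.358 (0.332 to 0.386) at TAC-4w, place 11176 from the top among 11205 genes, and 3.05 (2.92 to 3.19) at TAC-6w, place 140 among 11952. The TAC-6w level was 8.53 times that of TAC-4w.

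Col1a1 had 47.0 CPM in sham and 39.7, 29.2 and 128 CPM at 2, 4 and 6 weeks. The ratio to sham was 0.623 (0.571 to 0.678) at TAC-4w and 2.72 (2.56 to 2.89) at TAC-6w. Its partner chain Col1a2 had 59.2, 58.9, 45.5 and 147 CPM, with ratios of 0.769 (0.715 to 0.827) and 2.48 (2.35 to 2.62). Both type I chains, like Col3a1, were lowest at TAC-4w and highest at TAC-6w, with a smaller distance between sham and TAC-4w.

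The type V chains Col5a1 and Col5a2 were also lowest at TAC-4w and highest at TAC-6w, at lower counts. Col5a1 had 17.8, 15.0, 12.1 and 43.9 CPM, from 462, 732, 388 and 2120 UMIs. Its ratio to sham was 0.683 (0.596 to 0.784) at TAC-4w and 2.47 (2.23 to 2.74) at TAC-6w. Col5a2 had 19.7, 17.1, 14.3 and 46.7 CPM, with ratios of 0.727 (0.639 to 0.826) and 2.37 (2.15 to 2.61). Type V is the collagen of the fibril core, and the ratio of its chains, Col5a1 to Col5a2 in UMIs, lay between 0.847 and 0.940 in the 4 sections.

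Lox and Loxl1 did not share this course, while Loxl2, like the collagens, was below sham at TAC-4w and above it at TAC-6w. Lox, which oxidises fibrillar collagen, was the gene of the 8 that was highest at TAC-4w. It had 4.39 CPM (3.62 to 5.27) in sham and 2.99 (2.53 to 3.52), 9.52 (8.48 to 10.6) and 5.36 (4.73 to 6.06) at 2, 4 and 6 weeks, from 114, 146, 304 and 259 UMIs. TAC-4w was 2.17 times sham (1.74 to 2.72), and TAC-6w, at 1.22 times (0.978 to 1.54), could not be separated from sham at this depth.

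Loxl1, the family member best known for elastic fibres, had 29.2, 22.7, 37.0 and 64.1 CPM in the 4 sections. It was 1.27 times sham (1.16 to 1.39) at TAC-4w and 2.20 times sham (2.03 to 2.38) at TAC-6w. Scaled to a list of 8 fibroblast markers, whose sum is mostly Gsn and Dcn, instead of to all UMIs, the TAC-4w ratio of Loxl1 was 0.986. Loxl2, which acts on collagen IV and fibrillar collagen, had 7.27, 4.98, 5.89 and 16.5 CPM, with ratios of 0.810 (0.658 to 0.996) at TAC-4w and 2.27 (1.93 to 2.67) at TAC-6w. Within the batch that sham and TAC-2w share, the 3 oxidases were all lower at TAC-2w, with ratios of 0.683 for Lox, 0.779 for Loxl1 and 0.686 for Loxl2.

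**Figure D1:**
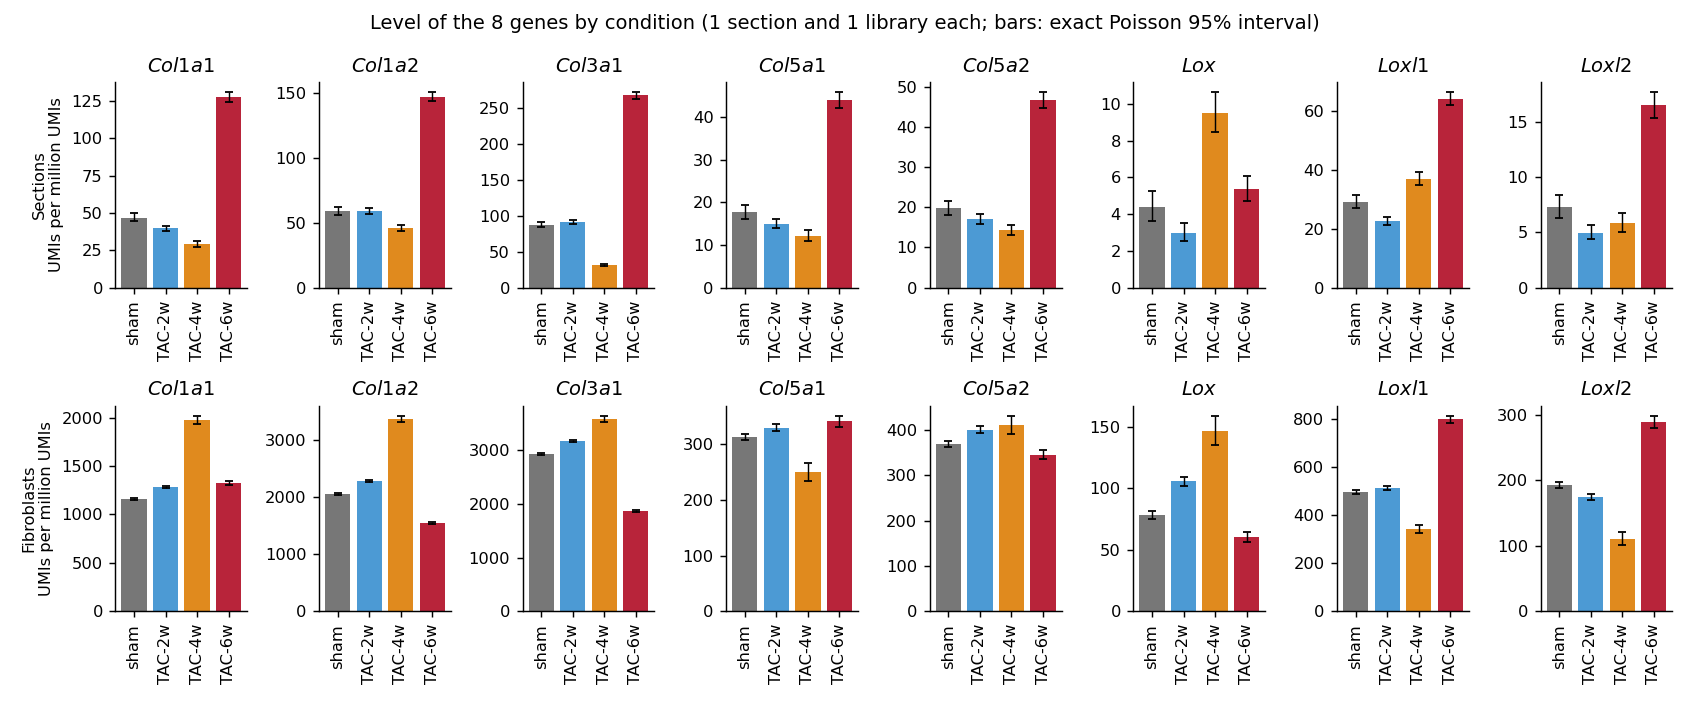
Level of each of the 8 genes in CPM (y axis, linear from 0, own scale per panel) in the 4 sections (upper row) and in the fibroblasts of the 4 libraries (lower row). Bars are the single section or library of a condition and error bars the exact Poisson 95% interval. In sections the TAC-6w bar is the highest for every gene but Lox, while in fibroblasts Col1a1, Col1a2, Col3a1, Col5a2 and Lox are highest at TAC-4w.

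Several facts of the sections move with these values, and their part in them was not tested. Mitochondrial transcripts took 51.5% of the UMIs in sham and 42.2% to 44.2% in the TAC sections. The median ratio to sham over all genes was 1.16 at TAC-4w and 1.24 at TAC-6w (log2 shifts of 0.22 and 0.30), so the collagens at TAC-4w were lower still against the typical gene. When the total omitted mitochondrial genes and features made of ribosomal RNA, the medians were 0.971 and 1.07. With that total 5 of the 8 genes were at least 1.5-fold lower at TAC-4w, beside 6.36% of all genes tested. At TAC-2w 3 were lower, beside 10.1%. With all UMIs the shares of lower genes were 2.5% at TAC-4w and 3.27% at TAC-2w. The 8 fibroblast markers summed to 1664 CPM in sham and 1509, 2143 and 1897 at 2, 4 and 6 weeks. Most of that sum was Gsn and Dcn, at 1.19 and 1.62 times sham at TAC-4w. The other markers went both ways there, with Tcf21 at 1.34 and Pdgfra at 1.135 times sham and Dpt at 0.975, Scara5 at 0.939, Lum at 0.839 and Ddr2 at 0.780 times. The 6 macrophage markers summed to 192, 175, 378 and 285 CPM and the 6 endothelial markers to 1216, 1178, 1605 and 2130. The 6 atrial markers, Nppa among them, summed to 109, 139, 1926 and 586 CPM, with Sln and Bmp10 at 0 in all but TAC-6w. In the 10% of spots richest in collagen they were 3.98, 4.47, 4.72 and 2.29 times the rest. The study names Nppa as a representative gene of a spatial cluster with mainly myocardial function. This sum is not read as a measure of atrial tissue, and what part atrial tissue has in the sections was not tested. A lower level in a section can come from fewer cells of a type or from less RNA of the gene per cell, and these cannot be told apart in spots that hold several cells.

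The higher collagen level at TAC-6w was spread over most spots. Per spot, the 5 collagens together had a median of 163 CPM in sham and 186, 90.6 and 555 at 2, 4 and 6 weeks, and the spot at the 10th percentile of TAC-6w, 221 CPM, lay above the median spot of every other section. After every spot was thinned to 5000 UMIs, which kept the 1406, 2048, 1194 and 1894 spots of that depth or more, 60.0% of the sham spots and 62.2%, 39.9% and 91.9% of those at 2, 4 and 6 weeks held a collagen UMI. Without thinning the shares were 78.4%, 95.1%, 81.5% and 97.4%. The 10% of spots with most collagen UMIs held 39.8%, 28.8%, 40.2% and 32.5% of them. This share was taken without thinning, and the median spot had 15488.5, 24523, 27593 and 20203 UMIs. It is therefore not read as a measure of how concentrated collagen was.

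Edge spots, those with an empty position among their 6 neighbours, were close to interior spots at TAC-6w. Their collagen level was 1.05 times that of interior spots (95% interval 1.01 to 1.09), against 0.787 in sham, 1.16 at TAC-2w and 1.18 at TAC-4w. Lox at TAC-4w stood apart here, with 17.3 CPM at the edge and 8.59 inside, a ratio of 2.01 (1.49 to 2.68). With interior spots alone its ratio to sham at TAC-4w was 1.95. In the 10% of spots richest in collagen, the smooth muscle markers were 4.46 times the rest in sham and 2.63, 3.63 and 2.90 times in the TAC sections, and the fibroblast markers 2.19, 2.12, 1.90 and 1.90 times. The cardiomyocyte markers were between 0.953 and 0.994 times the rest in these spots in all 4 sections.

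**Figure D2:**
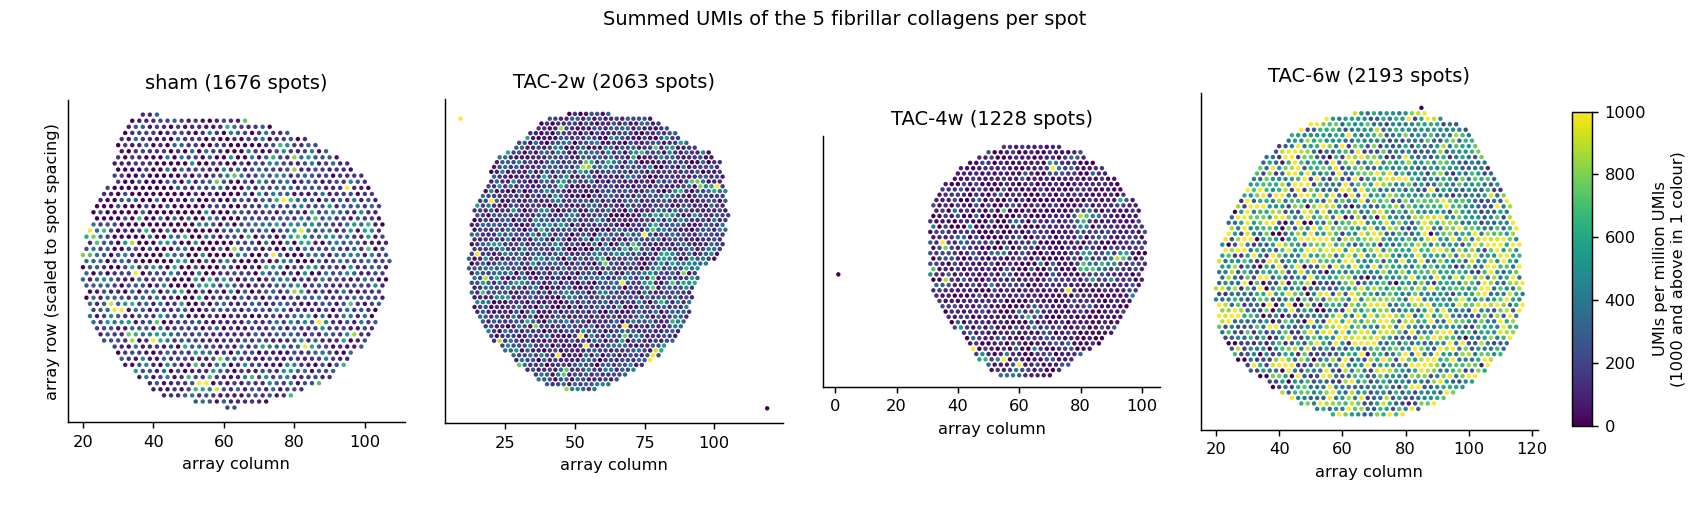
The summed UMIs of the 5 collagens as CPM of the spot, drawn at the array column and row of each spot in the 4 sections on 1 colour scale that ends at 1000. Median spots are at 163, 186, 90.6 and 555, and high spots lie over the whole TAC-6w section. Isolated spots beside the TAC-2w and TAC-4w sections are spots that the files list as tissue.

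Fibroblasts were then taken from each library as barcodes with at least 1 Pdgfra and 5 Dcn UMIs and without a Ptprc (leukocyte) or Pecam1 (endothelial) UMI, after the study's filters on genes, UMIs and mitochondrial share. The gate uses none of the 8 genes. It held 3304 cells in sham (40.2% of the filtered barcodes) and 2468 (38.0%), 285 (4.22%) and 2016 (36.1%) at 2, 4 and 6 weeks, with median UMIs of 10544.5, 12593.5, 13304 and 6321.5. All 8 fibroblast markers were detected in each of the 4 sets, which the gate fixed in advance for Pdgfra and Dcn. The levels of these gate genes given below also depend on the gate. The TAC-4w set differs from the others in more than its size. Its 6 pericyte markers summed to 359 CPM against 109 to 137 elsewhere, with Vtn at 0, its 6 neutrophil markers to 191 against 5.58 to 67.5, and its fibroblast markers went both ways. Gsn, Scara5 and Tcf21 were at 0.560, 0.568 and 0.583 times sham, Pdgfra, Dpt and Ddr2 between 0.830 and 0.873 times, and Dcn and Lum were above sham, Lum at 2.22 times. What part these have in its collagen levels was not tested.

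Leukocytes, which should lack the 8 genes, held them at a low level. In these cells Col3a1 was found in 14.7% of sham, 16.9% of TAC-2w, 2.28% of TAC-4w and 4.69% of TAC-6w cells, at median depths of 6809.5, 8699, 4408 and 2690.5 UMIs. In the fibroblasts the share was 96.9% to 99.6%. The leukocyte level of Col3a1 was 46.6, 37.7, 5.36 and 51.6 CPM, against 1868 or more in fibroblasts. At TAC-6w 208 Col1a1 UMIs lay in 3.72% of 1130 leukocytes, so they were not spread evenly over cells. Whether free RNA or doublets, which were kept, gave these UMIs was not tested. Of the UMIs of each gene in a library, leukocytes held between 0.482% and 2.51%.

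In fibroblasts the type I and III chains were higher at TAC-4w than at TAC-6w, the reverse of the sections. This contrast between the assays was known when the genes were chosen and is given as a description. At TAC-4w 3 of the 8 genes were at least 1.5-fold higher than sham and 1 lower, where 12.5% and 8.96% of 11982 genes were. At TAC-6w 2 were higher and 1 lower, where 7.56% and 13.1% of 11998 genes were. Against TAC-4w, TAC-6w fibroblasts had 2 of the 8 higher and 3 lower, beside 11.2% and 20.5% of 10383 genes. These shares of the 8 genes stand on single libraries, and at TAC-2w none passed 1.5-fold, against 2.03% and 1.61% of 12104 genes.

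Col1a1 had 1159 CPM in the sham fibroblasts and 1280.3, 1974 and 1327 at 2, 4 and 6 weeks. All 3 TAC values lay above sham, with ratios of 1.11 (1.09 to 1.12), 1.70 (1.66 to 1.74) and 1.15 (1.13 to 1.17). Col1a2 had 2054, 2295, 3374 and 1547 CPM. It was highest at TAC-4w, 1.64 times sham (1.61 to 1.67), and lowest at TAC-6w, 0.753 times sham (0.742 to 0.765).

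Col3a1 had 2921, 3163, 3576 and 1868 CPM in the fibroblasts of the 4 libraries. The ratio was 1.22 (1.203 to 1.246) at TAC-4w and 0.640 (0.631 to 0.648) at TAC-6w, the lowest of the 8 genes there. In the sections the same gene was the lowest of the 8 at TAC-4w and the highest by ratio at TAC-6w. Among cells of 5000 to 10000 UMIs 3 calls of the type I and III chains were lost, each still on the same side of sham. Col1a1 was at 1.46 and Col1a2 at 1.24 times sham at TAC-4w, and Col3a1 at 0.778 times at TAC-6w. Col3a1 at TAC-4w was 1.003 times sham in these cells, not separated from sham by counting error.

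The type V chains did not pass 1.5-fold at any time. Col5a1 had 313, 329, 249 and 340.5 CPM, with ratios of 0.798 (0.747 to 0.851) at TAC-4w and 1.09 (1.05 to 1.13) at TAC-6w. Col5a2 had 368, 400.04, 410.1 and 345 CPM, with ratios of 1.11 (1.06 to 1.17) and 0.937 (0.906 to 0.969). Among cells of 5000 to 10000 UMIs the TAC-6w ratio of Col5a2 was 1.12, and without cells that had a UMI of Postn, the matrix protein of activated fibroblasts, that of Col5a1 was 0.987, so neither has a settled direction at TAC-6w.

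The 3 lysyl oxidases had 2 patterns in fibroblasts. Lox had 78.4 CPM (75.5 to 81.3) in sham and 106 (102 to 110), 147 (135 to 159) and 60.4 (56.3 to 64.6) at 2, 4 and 6 weeks, 1.87 and 0.770 times sham at the last 2 times. This is the order of Col1a2 and Col3a1. Loxl1 had 496, 513, 343 and 799 CPM, with ratios of 0.691 (0.653 to 0.730) at TAC-4w and 1.61 (1.57 to 1.65) at TAC-6w. Loxl2 had 193, 175, 111 and 289.6 CPM, with ratios of 0.577 (0.523 to 0.635) and 1.504 (1.45 to 1.56). Lox was thus high where Loxl1 and Loxl2 were low. Both ratios of Loxl2 depended on the cells taken. At TAC-6w the ratio was 2.58 among cells of 5000 to 10000 UMIs and 1.08 among cells without a Postn UMI. At TAC-4w it was 0.860 (0.577 to 1.23) among cells of 5000 to 10000 UMIs and 0.768 among cells without a Postn UMI, both inside 1.5-fold.

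Set side by side, a section and the fibroblasts of the same condition lay on opposite sides of sham for 5 of the 8 genes at TAC-4w and for 3 at TAC-6w, with both intervals clear of 1. How many of all genes did so was not computed, so these counts are not read as particular to the 8 genes. At TAC-4w Col1a1, Col1a2, Col3a1 and Col5a2 were lower in the section and higher in fibroblasts, and Loxl1 was higher in the section and lower in fibroblasts. Of these, Col3a1 in fibroblasts was 1.003 times sham (0.933 to 1.08) among cells of 5000 to 10000 UMIs, and Loxl1 in the section was on the other side per UMI of the fibroblast markers. At TAC-6w Col1a2, Col3a1 and Col5a2 were higher in the section and lower in fibroblasts, Col5a2 with the reservation above. Loxl1 and Loxl2 at TAC-6w and Lox at TAC-4w were at least 1.5-fold higher in both assays. In fibroblasts these calls were lost for Loxl2 under 7 of 13 alternatives and for Loxl1 (1.45) without Postn-positive cells, and for Lox (1.45) without cells that had an Fmod or Col11a1 UMI. All ratios of an assay share the same sham section or library, and the difference between the assays was not tested.

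**Figure D3:**
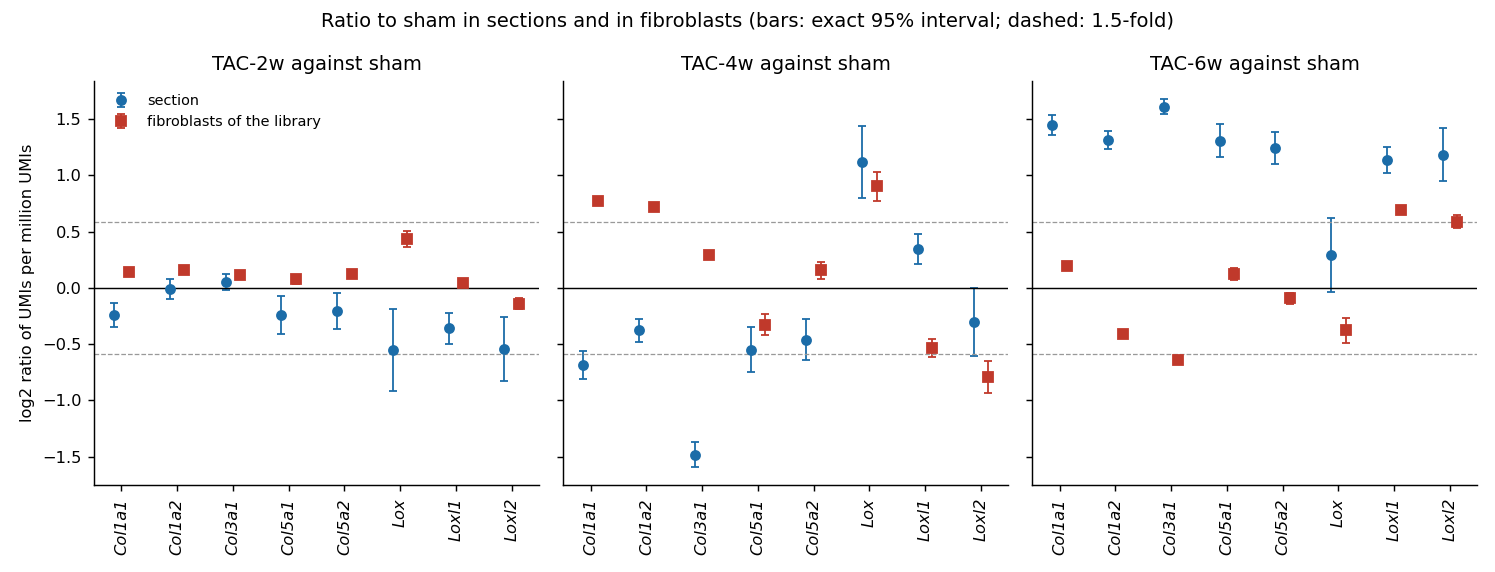
Log2 ratio to sham of the level of each gene (y axis) at TAC-2w, TAC-4w and TAC-6w, with sections as circles and fibroblasts as squares. Bars are exact 95% intervals for counting error and dashed lines mark 1.5-fold. At TAC-4w Col3a1 lies at -1.48 in the section and 0.29 in fibroblasts, and at TAC-6w at 1.61 and -0.64.

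The mix of the chains, which does not depend on the total used for scaling, was compared as a ratio of UMI counts of 2 genes within a sample. Levels of different genes are not comparable with each other in tag counts, so only the change of such a ratio between samples is read. Col1a1 to Col3a1 was 0.537 (0.501 to 0.576) in the sham section and 0.438, 0.935 (0.854 to 1.02) and 0.479 (0.464 to 0.494) at 2, 4 and 6 weeks. In fibroblasts it was 0.397, 0.405, 0.552 (0.537 to 0.567) and 0.710 (0.697 to 0.724). The type I chain therefore gained on the type III chain at TAC-4w in both assays and at TAC-6w in fibroblasts but not in the section.

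The 2 chains of type I collagen also shifted against each other. Col1a1 to Col1a2 was 0.564, 0.558 and 0.585 in the sham, TAC-2w and TAC-4w fibroblasts and 0.858 (0.841 to 0.875) at TAC-6w. In the sections it was 0.793 (0.735 to 0.856), 0.674, 0.642 and 0.869 (0.840 to 0.899). TAC-6w had the highest value in both assays, although the sham and TAC-6w sections were close. Col5a1 to Col1a1 was 0.126 (0.118 to 0.135) in TAC-4w fibroblasts and between 0.257 and 0.270 in the others. In sections it was highest at TAC-4w, 0.415 (0.368 to 0.468). The intervals of sham, 0.378 (0.339 to 0.421), and of TAC-2w, 0.378 (0.347 to 0.412), overlapped that of TAC-4w. The TAC-6w value was 0.344 (0.327 to 0.361). Col5a1 and Col5a2, close to each other's course in the sections, shifted against each other in fibroblasts. Col5a1 to Col5a2 was 0.608 (0.561 to 0.658) in TAC-4w fibroblasts and between 0.823 and 0.988 in the others.

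Among the enzymes, Lox to Loxl1 was 0.158, 0.207, 0.428 (0.388 to 0.472) and 0.0755 (0.0703 to 0.0811) in fibroblasts and 0.150, 0.132, 0.257 (0.226 to 0.292) and 0.0837 (0.0735 to 0.0951) in sections. The ratio was highest at TAC-4w and lowest at TAC-6w in both assays, so here sections and fibroblasts had the same order at the later times. Loxl1 to Col1a1, a lysyl oxidase against a collagen chain, was 1.27 in the TAC-4w section against 0.502 to 0.621 in the other sections. In fibroblasts it was 0.174 at TAC-4w against 0.400 to 0.602 in the other libraries.

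**Figure D4:**
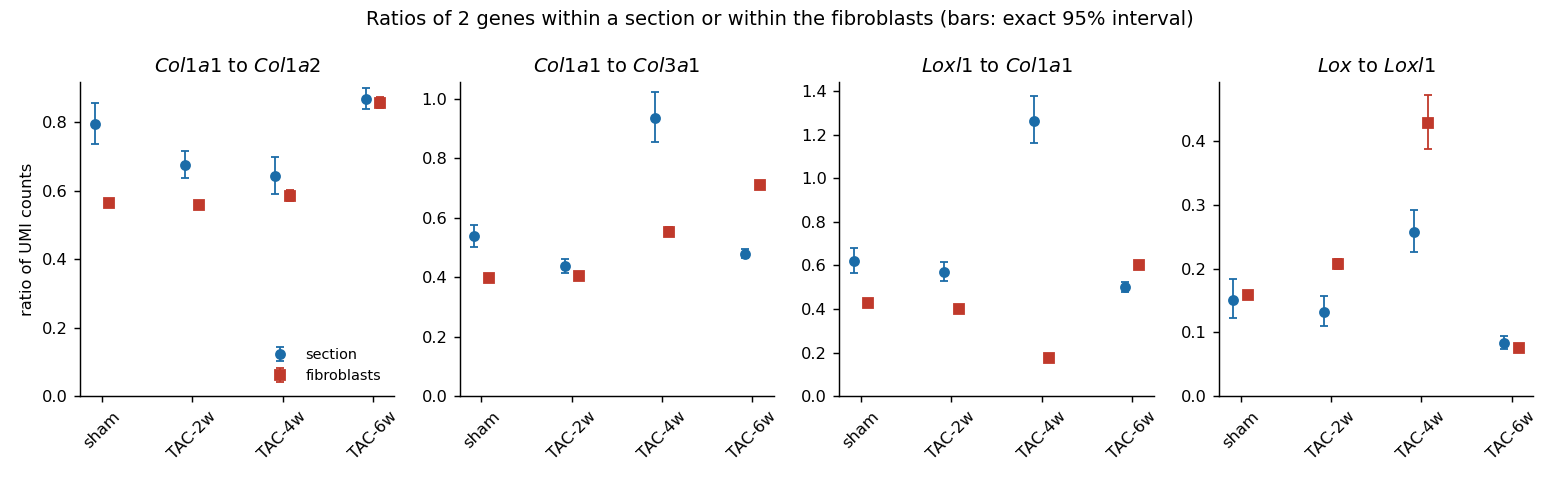
Ratio of the UMI counts of 2 genes (y axis, linear from 0) within each section (circles) and within the fibroblasts of each library (squares) for 4 pairs. Bars are exact 95% intervals. Lox to Loxl1 is highest at TAC-4w and lowest at TAC-6w in both assays, while Loxl1 to Col1a1 at TAC-4w is the highest of the sections and the lowest of the fibroblast sets.

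The fibroblasts of TAC-4w varied more among themselves than those of the other libraries. The 5 collagens together ran from 2360 CPM in the cell at the 10th percentile to 18690.1 at the 90th, a 7.92-fold range, against 3.98-fold in sham and at TAC-2w and 4.37-fold at TAC-6w. Their median was 5695 CPM in sham and 6127, 7070 and 4626 at 2, 4 and 6 weeks. For Col3a1 the median cell had 2214, 2403, 2396 and 1419 CPM, so the TAC-4w median was close to that of TAC-2w although the summed level was above it. Across cells the type I chains had a Pearson correlation of 0.839 at TAC-4w (285 cells) and 0.469 to 0.698 in the other libraries, and Loxl2 and Lox one of -0.205 at TAC-4w, -0.158 in sham, -0.160 at TAC-2w and 0.0256 at TAC-6w. These are descriptions of cells from 1 library each. Depth differed too, with a median of 13304 UMIs at TAC-4w and 6321.5 at TAC-6w, where the type I correlation was lowest. Correlations at equal depth were not computed, so a difference between libraries is not read as tighter co-expression.

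Cells with a UMI of Fmod, a keratan sulfate proteoglycan that binds collagen fibrils, or of Col11a1, a minor fibrillar collagen, made up 33.3% of the TAC-4w fibroblasts (95 of 285, Clopper-Pearson 95% interval 27.9% to 39.1%) and 3.51%, 4.78% and 4.71% of those of sham, TAC-2w and TAC-6w. With each cell thinned to 2000 UMIs the share was 18.3% (14.0 to 23.3) at TAC-4w and 1.22% to 2.61% in the others, and in leukocytes it was at most 0.354% before thinning. Without these cells the TAC-4w ratios were 1.40 for Col1a1, 1.26 for Col1a2, 1.03 for Col3a1, 1.45 for Lox and 0.779 for Loxl2, and no gene of the 8 passed 1.5-fold. The direction of these 5 genes was kept and the sizes were smaller. This split was made after the values were seen. Col11a1 (11.8 times sham) and Fmod (8.72 times) had the highest TAC-4w ratios in fibroblasts among the tested genes of the lists below. The split was thus bound to leave out a larger share of TAC-4w than of sham cells. The smaller sizes are not read as a result about the 8 genes, and the share of all genes past 1.5-fold without these cells was not computed.

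Cells with at least 1 Postn UMI, here called Postn-positive, were 24.2% of the sham fibroblasts and 27.8%, 49.1% and 38.5% at 2, 4 and 6 weeks. In leukocytes the share was 0.219% to 2.59%. The share depends on depth, and Postn-positive cells were the deeper ones (medians of 12340 against 10096 UMIs in sham and 7768 against 5753 at TAC-6w). With each fibroblast thinned to 2000 UMIs it was 13.8% in sham and 15.0%, 22.2% (17.5 to 27.5) and 27.9% (25.9 to 29.9) at 2, 4 and 6 weeks, so TAC-4w was no longer the highest. Postn-positive cells had more Col3a1 than the others in every library, with 3802 against 2566 CPM in sham and 2318 against 1475 at TAC-6w. Within both kinds of cell, Col3a1 was lower at TAC-6w than in sham (0.610 and 0.575 times) and Loxl1 higher (1.80 and 1.45 times). Lox at TAC-6w was 1.10 times sham in Postn-positive and 0.616 times in Postn-negative cells. At TAC-4w Loxl2 was 0.373 times sham in the 140 Postn-positive cells and 0.768 times in the 145 others.

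Outside the fibroblast gate, Col5a2 and Lox were also found in endothelial cells (at least 2 Pecam1 and 1 Cdh5 UMIs, no Ptprc or Pdgfra). Col5a2 had 124, 83.2, 53.4 and 52.4 CPM in 302, 354, 385 and 142 endothelial cells, and Lox 43.7, 30.9, 17.4 and 22.05. At TAC-4w Col5a2 was found in 20.5% of endothelial cells and 0.302% of leukocytes, and Lox in 9.09% and 0.165%, while Col1a1 was found in 0.519% and 1.54%. At TAC-4w Col1a1 was thus the more frequent gene in leukocytes and Col5a2 the more frequent in endothelial cells. In sham, Col1a1 was found in 7.62% of endothelial cells and 5.72% of leukocytes. Col1a2 and Col3a1 had 97.2 and 76.6 CPM in sham endothelial cells, beside 33.8 and 46.6 in sham leukocytes. At TAC-4w they had 1.85 and 6.08 CPM in endothelial cells, beside 7.12 and 5.36 in leukocytes. In mural cells (pericytes and smooth muscle, 15 to 97 per library) Col1a1 had 248, 227, 1033 and 701 CPM, the TAC-4w value resting on 15 cells. Barcodes in none of these gates held a further 17.8% to 35.8% of the UMIs of each of the 8 genes.

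Other genes of collagen making were given as 5 lists with 53 genes in all. In the TAC-6w section 17 of the 43 with at least 50 UMIs in either section were at least 1.5-fold higher and none lower, beside 17.6% and 0.962% of all genes, with a median ratio of 1.37 beside 1.24. Most came from procollagen processing and fibril assembly, where 9 of 12 were higher, with a median of 1.91. Fmod was 3.98 times sham (2.42 to 6.92) and Sparc, a collagen chaperone outside the cell, 2.38 times. Of the sham and TAC-6w sections compared here, Fmod (18 UMIs in sham and 133 at TAC-6w) and Itga11 (44 and 150) reached 50 UMIs only in that of TAC-6w. Both therefore entered the count through the section where they were high. Of the rest, chosen after their values were seen, Adamts2, which cuts the amino-terminal propeptide, was 2.29 times, Pcolce, the enhancer of the carboxy-terminal cut, 1.93 times and Bmp1, which makes that cut, 1.68 times. Hydroxylation and glycosylation had 1 of 13 higher, with a median of 1.24, and folding and export 2 of 9, with a median of 1.29. Collagen uptake and breakdown in the cell had 3 of 6 higher, with a median of 1.45. The other fibrillar collagens and lysyl oxidases had 2 of 3 higher, with a median of 1.61.

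In the TAC-4w section 7 of 40 list genes were higher and 4 lower, beside 15.2% and 2.5% of all genes, so the count of higher genes is near the background. The median was 1.06 beside 1.16 over all genes. Thbs1, a matricellular activator of TGF-beta, was 3.16 times sham, and Tmem38b, a cation channel of the endoplasmic reticulum, 2.62 times. Serpinh1, the collagen-specific chaperone, had 111, 88.6, 56.9 and 151 CPM in the 4 sections, the order of the collagens, with a ratio of 0.514 at TAC-4w. Fkbp10, a prolyl isomerase for procollagen, was 2.37 times sham at TAC-4w and 1.70 times at TAC-6w, and Ctsl, a lysosomal protease, 1.71 and 1.56 times.

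In fibroblasts 7 of 49 list genes were higher and 6 lower at TAC-4w, beside 12.5% and 8.96% of all genes, which is near the background. At TAC-6w 10 were higher and 4 lower, beside 7.56% and 13.1%. The medians were 1.01 and 1.11, beside 1.07 and 0.954 over all genes. Col11a1 was 11.8 times sham at TAC-4w (17.6 against 1.49 CPM, from 70 and 54 UMIs) and 0.489 times at TAC-6w, and Fmod 8.72 and 1.76 times. Thbs1 was higher at both times, 1.53 and 1.76 times. P3h2, a prolyl 3-hydroxylase, was 1.98 times and Col27a1, a fibrillar collagen known from cartilage, 1.87 times sham at TAC-6w. Serpinh1, at 1.01 and 1.31 times sham in fibroblasts, did not pass 1.5-fold. Folding and export had 0 of 9 genes past 1.5-fold in either direction at TAC-4w.

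**Figure D5:**
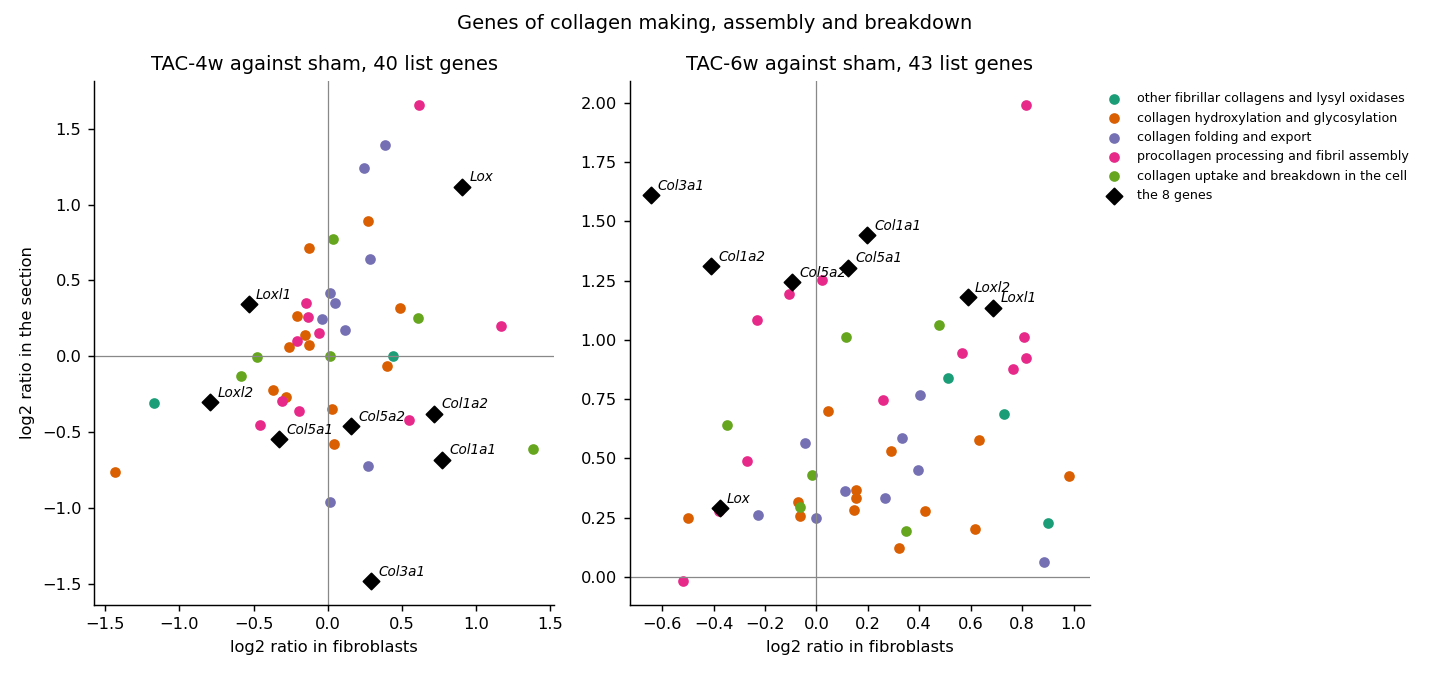
Log2 ratio to sham in the section (y axis) against that in fibroblasts (x axis) at TAC-4w and TAC-6w, for the genes of the 5 lists that reached 50 UMIs in both assays (dots, coloured by list) and the 8 genes (diamonds). At TAC-6w all dots but that of Ddr2 (ratio 0.988) lie above 0 on the y axis, and Col3a1 lies farthest left of all points. The median over all genes tested in that section also lies above 0, at a log2 ratio of 0.30, so this is not particular to the lists. Both axes of a panel rest on 1 sham section and 1 sham library.

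Genes whose values were most like the mean of the 8 genes were ranked by Pearson correlation within a section or a library and averaged over the 4. Across spots, among 6434 genes, the 10 first were Gsn (0.490), Dcn (0.419), Bgn (0.402), Mgp (0.400), Igfbp7, Mfap5, Cilp, S100a6, Ltbp4 and Fbln2 (0.355). Across fibroblasts, among 2951 genes, they were Sparc (0.684), Col6a1 (0.422), Fbn1 (0.414), Col6a2 (0.414), Adamts2, Serpinh1, Fstl1, Mfap5, Col8a1 and Aspn (0.352). Mfap5, a microfibril protein, is in both rankings. The points share a library and its depth, and no p-value belongs to these values. The 28 pairs of the 8 genes had a median correlation of 0.0879 to 0.149 across spots and 0.214 to 0.285 across fibroblasts, where counts per spot or cell are sparse.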

How the data were processed

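The authors aligned the reads to mm10 and deposited whole-number UMI counts per gene and spot (4 Visium sections) or per gene and barcode (4 libraries). The submitters' processing notes name Cell Ranger 7.0.0 and Space Ranger 1.3.1, while the headers of the deposited count files carry 6.0.0 and 1.2.0. The labels describe isolated nuclei and the study's methods dissociated cells, and which holds was not settled. Nuclei would carry less spliced RNA, which bears on levels but is shared by the libraries if all were prepared alike.

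Counts were summed per section over tissue spots, and per library over fibroblasts. Barcodes outside 500 to 30000 UMIs or 200 to 6000 genes, or with 15% or more mitochondrial UMIs, were dropped. Doublets were kept, and an alternative removed the 3.2% of cells with the highest Scrublet scores. A gene entered a comparison with at least 50 UMIs in either sum, and 1.5-fold was the size used for counts. Each condition had 1 sample per assay, so no test was run. Exact Poisson intervals were used for levels, conditional binomial ones for ratios and Clopper-Pearson ones for shares, all at 95% and for counting error only. On counts simulated as Poisson draws, the model behind the interval, the ratio interval held the true value for 95.5% of 11076 genes in sections (TAC-4w against sham) and 95.9% of 12018 genes in fibroblasts. This checks the computation only and cannot show how the interval covers spread beyond counting error.

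The 8 genes, the marker and pathway lists and the tests were chosen with earlier results of these data known. Pathway genes could be named if past 1.5-fold in the same direction at TAC-4w and TAC-6w, or among the 2 highest and 2 lowest ratios of a comparison. The 10 genes most like the 8 were taken among those with at least 200 UMIs in every section or fibroblast set. Promoter stretches came from RefSeq tables for GRCm38.p6. Alternatives changed the total, the spots or cells taken, their depth, the gate, doublets and free RNA. The computations used scipy 1.17.1, scanpy 1.11.5, numpy 2.4.6 and pandas 2.3.3 under Python 3.11.15.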

Additional observations from a re-analysis of the deposited data

Results flagged for a closer look

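In 13 cases a gene lay on one side of sham in the section and on the other in the fibroblasts of the same condition, each with a counting interval clear of 1. The difference between the assays was not tested, since each rests on 1 section and 1 library. A contrast between the assays was known when the genes were chosen. How many of all genes lay on opposite sides was not computed, so the count is not read as particular to these genes. The interval covers counting error only and was clear of 1 for 45 of 48 ratios to sham. TAC-2w, where none of these genes passed 1.5-fold in either assay, had 5 cases, as did TAC-4w.

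At TAC-4w there were 5 such genes. Col1a1 was 0.623 times sham in the section and 1.70 times in fibroblasts, Col1a2 0.769 and 1.64 times, Col3a1 0.358 and 1.22 times and Col5a2 0.727 and 1.11 times. Loxl1 had the other sign, with 1.27 times in the section and 0.691 times in fibroblasts, and the section ratio was 0.986 per UMI of the fibroblast markers.

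At TAC-6w there were 3. Col1a2 was 2.48 times sham in the section and 0.753 times in fibroblasts, Col3a1 3.05 and 0.640 times and Col5a2 2.37 and 0.937 times, the last turning to 1.12 among cells of 5000 to 10000 UMIs.

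At TAC-2w there were 5, and for 4 of them, all but Lox, a ratio crossed to the other side of sham under an alternative. Col1a1 was 0.845 times sham in the section and 1.11 times in fibroblasts, Col5a1 0.845 and 1.05 times, Col5a2 0.865 and 1.09 times, Lox 0.683 and 1.35 times and Loxl1 0.779 and 1.03 times.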

How the results depend on the processing

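Of 48 ratios of the 8 genes to sham, 45 had a counting interval clear of 1, and 37 of these kept their side under every alternative. Of 438 values under alternatives, 8 lay on the other side. In sections these were Col1a1 at TAC-2w, 1.02 as the mean over spots, Col5a2 at TAC-2w, 1.03 with spots thinned to 5000 UMIs, and Loxl1 at TAC-4w, 0.986 per UMI of the fibroblast markers. In fibroblasts of 5000 to 10000 UMIs they were Col5a1, Col5a2 and Loxl1 at TAC-2w (0.940, 0.993 and 0.975) and Col5a2 at TAC-6w (1.12), and without Postn-positive cells Col5a1 at TAC-6w (0.987). The causes were not tested.

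Counts past 1.5-fold moved as follows. In sections, the genes lower at TAC-2w were 3 when the total omitted mitochondrial genes and features made of ribosomal RNA and 1 each with interior spots and with spots of 15000 to 30000 UMIs, against 0. Those lower at TAC-4w were 5 without these features, 1 as the mean over spots and 6 per UMI of the fibroblast markers, against 2. Without these features 10.1% of all genes tested were lower at TAC-2w and 6.36% at TAC-4w. For the other alternatives the share over all genes was not computed. In fibroblasts of 5000 to 10000 UMIs, 1 was lower at TAC-2w, and at TAC-4w 1 was higher and 0 lower, against 3 and 1. At TAC-4w 0 were higher and 0 lower without cells with an Fmod or Col11a1 UMI, and 0 were lower without Postn-positive cells. At TAC-6w 1 gene was higher, against 2, with no filter on cells, with under 5% mitochondrial UMIs, thinned to 2000 UMIs, without the mitochondrial features, after subtracting the leukocyte level and without Fmod or Col11a1 cells, and 0 without Postn-positive cells. The genes lower at TAC-6w were then 3 without Postn-positive and 2 without Fmod or Col11a1 cells, against 1. Scaling by fibroblast markers and both splits of the cells were chosen after seeing the data. No paired analysis was possible because each condition had 1 section and 1 library. Depth limits Lox in sections (114 to 304 UMIs) and Loxl2 in TAC-4w fibroblasts (443 UMIs).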
